A study of Homo sapiens with 4 samples.

Results

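The enzymes of the tricarboxylic acid (TCA) cycle were examined in MV4-11 cells, a human acute myeloid leukemia (AML) cell line, upon knockdown of CEBPG. The set holds 9 genes, CS, IDH1, IDH2, IDH3A, OGDH, SUCLA2, SUCLG1, FH and MDH2, which were selected by gene symbol. They make up 17 RefSeq transcript rows, whose values were summed per gene and library, and they are 9 of 16490 genes with values in the table. Levels are given in FPKM, fragment counts scaled to transcript length and library size. They are RNA levels throughout, and protein levels of these enzymes were not examined here. All 9 genes passed the filter on low values, a mean of 0.5 FPKM or more, and were among the 12142 genes tested. For MV4-11 the study sequenced RNA from 2 libraries of control cells carrying sh-NC, a control hairpin, and from 2 libraries of cells carrying sh-CEBPG#3, a hairpin against CEBPG, which encodes a bZIP transcription factor. The paper also reports RNA-seq of NB4 cells, which was not examined here. The paper describes hairpins against CEBPG in a pLKO.1-puro lentivirus and selection of infected cells with puromycin. It does not name the vector of sh-NC. No source used here says if replicate libraries stem from separate infections, so the p-values measure only the spread between these libraries, which may be technical. With 1 hairpin against CEBPG in the sequenced MV4-11 cells, an effect of CEBPG loss and an effect of the hairpin itself cannot be told apart. In RNA from whole cultures, fewer cells of a kind and less RNA per cell cannot be told apart either.

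The TCA cycle runs in the mitochondrial matrix, where it oxidizes the acetyl group of acetyl-CoA to carbon dioxide and passes the electrons to the respiratory chain. Citrate synthase (CS) makes citrate, isocitrate dehydrogenases turn isocitrate into 2-oxoglutarate, the 2-oxoglutarate dehydrogenase complex makes succinyl-CoA, succinyl-CoA ligase makes succinate, succinate dehydrogenase makes fumarate, and fumarase (FH) and malate dehydrogenase (MDH2) restore oxaloacetate. IDH3 is the NAD-dependent isocitrate dehydrogenase of the cycle itself, whereas IDH2 in mitochondria and IDH1 in the cytosol and peroxisomes use NADP and lie beside it. IDH1 and IDH2 are known in AML as genes that can carry recurrent mutations, and mutations were not examined here.

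Upon CEBPG knockdown, IDH1 rose more than 2-fold and was the only one of the 9 genes to do so, while IDH3A and the succinyl-CoA ligase subunits SUCLA2 and SUCLG1 fell to between 75.4% and 82.7% of the control level. CS rose by a small amount, and IDH2, OGDH, FH and MDH2 did not pass the test. In counts, 2 of the 9 genes were higher and 3 were lower at an adjusted p under 0.05 (limma, Benjamini-Hochberg). Over all genes tested, 42.2% passed in either direction, 18.5% as higher and 23.8% as lower, and the 5 of 9 enzymes that passed were a share near this background. The median log2 fold change of the 9 genes was 0.025, beside -0.038 over all genes tested. By the threshold of the study, a more than 2-fold change at p under 0.05, here the unadjusted p from limma, 1 of the 9 genes passed, against 3.41% of all genes tested (2.36% higher and 1.05% lower). The libraries of the groups did not overlap for 7 of the 9 genes, with 4 lower and 3 higher upon knockdown, and 71.7% of all genes tested did not overlap (40.2% lower and 31.5% higher).

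**Figure D1:**
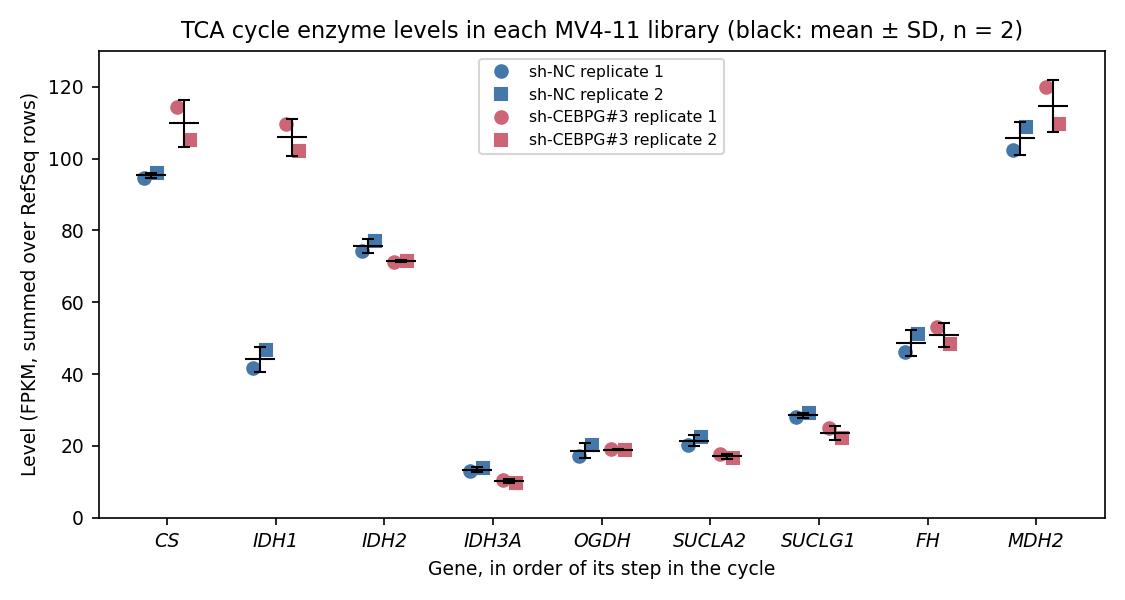
Level of each of the 9 TCA cycle genes in FPKM (linear axis from 0) in each library, with sh-NC in blue and sh-CEBPG#3 in red, circles for replicate 1 and squares for replicate 2, and black bars for the mean ± SD of the 2 libraries. IDH1 moved from 41.6 and 46.6 FPKM to 109.6 and 102 FPKM, while the means of the other 8 genes stayed between 75.4% and 115% of control.

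IDH1, the cytosolic NADP-dependent isocitrate dehydrogenase that makes 2-oxoglutarate and NADPH, had 41.6 and 46.6 FPKM in control cells and 109.6 and 102 FPKM upon knockdown. Both knockdown libraries were above both control libraries, and the lowest knockdown level was far above the highest control level. Its mean was 44.1 ± 3.51 FPKM (SD, n = 2) in control cells and 106 ± 5.24 FPKM (SD, n = 2) upon knockdown, a ratio of 2.4. The log2 fold change of IDH1 on the log2(FPKM + 1) scale was 1.25 (standard error 0.08, adjusted p = 2.43e-06 in limma), which exceeded the spread of the libraries within each group. IDH1 lies on the minus strand of chromosome 2, at chr2:208236227-208255071 of GRCh38.p14.

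The increase of IDH1 was seen in both of its well-expressed transcripts. NM_005896, the main row of IDH1, had 39.1 and 44.2 FPKM in control cells and 96.8 and 92.7 FPKM upon knockdown. NM_001282387 had 2.44 and 2.36 FPKM in control cells and 11.6 and 9.46 FPKM upon knockdown. Neither transcript overlapped between the groups. Of all genes tested 71.7% did not overlap, and this share was not computed over single rows. The share of NM_001282387 in the IDH1 level was 5.85% and 5.07% in control cells and 10.6% and 9.26% in knockdown cells. When each RefSeq row was fitted by itself, a choice made after the values were seen, the log2 fold change was 1.17 for NM_005896 (standard error 0.08, adjusted p = 0.0139 in limma) and 1.75 for NM_001282387 (standard error 0.14, adjusted p = 0.0157 in limma). These were the 2 of the 14 tested rows of the 9 genes that passed at an adjusted p under 0.05, and both were higher, against 8.24% of the 18624 rows tested in either direction and 4.16% as higher. The third IDH1 row, NM_001282386, reached at most 1.19 FPKM and was below the filter on low values. Transcripts of 1 gene share exons, so the division of its FPKM among its rows is an estimate.

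RefSeq gives 2 start sites of IDH1 on GRCh38.p14, and the sequences around both are shown because IDH1 carries the main change among these enzymes and more than 1 of its transcripts rose. Which transcript row starts at which site was not determined here. Each window runs from 250 bases before to 50 bases after a start site and is read 5′ to 3′ on the minus strand. The outer window, with its start at 208255071, is chr2:208255022-208255321, and the inner window, with its start at 208254458, is chr2:208254409-208254708. Capitals mark the CCAAT box, which reads ATTGG here because it lies on the opposite strand.
IDH1 outer start: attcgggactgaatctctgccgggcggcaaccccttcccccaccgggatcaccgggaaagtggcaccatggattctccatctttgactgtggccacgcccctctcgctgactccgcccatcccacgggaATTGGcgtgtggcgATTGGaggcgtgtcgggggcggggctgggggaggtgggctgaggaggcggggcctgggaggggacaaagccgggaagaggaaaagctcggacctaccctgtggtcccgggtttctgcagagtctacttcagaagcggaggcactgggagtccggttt
IDH1 inner start: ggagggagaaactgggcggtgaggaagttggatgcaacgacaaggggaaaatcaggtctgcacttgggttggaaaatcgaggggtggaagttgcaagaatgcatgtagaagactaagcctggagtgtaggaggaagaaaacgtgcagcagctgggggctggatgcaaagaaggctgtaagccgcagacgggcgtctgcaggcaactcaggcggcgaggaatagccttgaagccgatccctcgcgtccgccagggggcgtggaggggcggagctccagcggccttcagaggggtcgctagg

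Promoter windows of this length were matched for 8 of the 9 genes, 9 windows in all, and the entry for OGDH is missing. Motifs were searched on both strands. The core of the CEBP binding site, written TTGCNNAA, was found in 1 of the 9 windows, that of IDH2, and in 10.5% of the 35116 promoter windows of all genes. The IDH2 window belongs to a start at position 90100621 of chromosome 15, inside the gene, whose outer end is at 90102468. The composite CEBP-ATF site, written TGATGCAA, was found in no window of these genes and in 0.866% of all windows. The CCAAT box, CCAAT, which is known as a site of the NF-Y complex in spite of the name of the CEBP family, was found in 5 of the 9 windows and in 34.6% of all windows. It occurred in the windows of FH, SUCLG1, CS and SUCLA2 and, as 2 copies at 121 and 107 bases before the start, in the outer window of IDH1. The 5 genes with a CCAAT box included IDH1 and CS, which were higher, SUCLA2 and SUCLG1, which were lower, and FH, which did not pass. A match is a run of letters and was not tested for binding.

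IDH2, the mitochondrial NADP-dependent isocitrate dehydrogenase, had 74.2 and 77.0 FPKM in control cells and 71.3 and 71.6 FPKM upon knockdown. Both knockdown libraries were slightly below both control libraries. The log2 fold change of IDH2 was -0.08 (95% confidence interval -0.23 to 0.07, adjusted p = 0.38 in limma), so the interval left room for a small decrease and not for a change as large as that of IDH1. With quantile normalization it was -0.12 (adjusted p = 0.0491 in limma, against 0.0491 to 0.638 over all 9 alternatives). NM_002168 carried 93.7% to 98.6% of the IDH2 level in each library. The minor row NM_001290114 had 1.16 and 1.13 FPKM in control cells but 0.949 and 4.54 FPKM upon knockdown, so its knockdown libraries differed more from each other than the groups did.

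The order of the RNA levels of the NADP-dependent enzymes turned over. In control cells the IDH1 level was 0.561 and 0.605 of the IDH2 level, and in knockdown cells it was 1.54 and 1.43 of it. IDH1 thus made up 35.9% and 37.7% of the summed IDH1 and IDH2 levels in control cells and 60.6% and 58.8% upon knockdown. The log2 ratio went from -0.78 ± 0.08 (SD, n = 2) to 0.57 ± 0.08 (SD, n = 2), a difference of 1.35, with p = 0.333 in an exact two-sided permutation test over the 4 libraries, which is the smallest p this design allows. The share of IDH1 in the summed FPKM of the 9 genes went from 9.51% and 10.0% to 20.3% in each knockdown library. That sum was 437.7 and 465 FPKM in control cells and 540.5 and 504.5 FPKM in knockdown cells, and without IDH1 it was 396 and 418.5 FPKM against 430.9 and 402 FPKM, where the groups overlap.

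IDH3A, the catalytic alpha subunit of the NAD-dependent isocitrate dehydrogenase, moved in the opposite direction to IDH1. It had 13.0 and 13.9 FPKM in control cells and 10.5 and 9.76 FPKM upon knockdown, with no overlap. The log2 fold change of IDH3A was -0.38 (standard error 0.09, adjusted p = 0.00609 in limma), and 75.4% of the control level remained. It stayed past the threshold in all 9 alternatives that changed the processing and without each library in turn, where the highest adjusted p in limma was 0.046, but not when single RefSeq rows were fitted, where its 1 row had the same log2 fold change of -0.38 at an adjusted p of 0.0832 over 18624 rows. Its partners, the regulatory beta and gamma subunits, did not follow it. IDH3G had 27.4 and 33.3 FPKM in control cells and 38.4 and 37.9 FPKM upon knockdown, and it rose by 0.33 on the log2 scale (standard error 0.09, adjusted p = 0.0187 in limma). When single RefSeq rows were fitted, its main row NM_004135 rose by 0.41 and did not pass either (adjusted p = 0.0659 in limma). The log2 fold change of IDH3B was 0.12 (95% confidence interval -0.06 to 0.30, limma adjusted p = 0.263). The ratio of the IDH3A to the IDH3G level, a quantity chosen after the values were seen, was 0.475 and 0.417 in control cells and 0.274 and 0.258 in knockdown cells (exact two-sided permutation test, p = 0.333, the smallest this design allows).

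Succinyl-CoA ligase pairs the alpha subunit SUCLG1 with 1 of 2 beta subunits, SUCLA2, which makes ATP, or SUCLG2, which makes GTP. SUCLA2 had 20.4 and 22.5 FPKM in control cells and 17.7 and 16.7 FPKM upon knockdown, and it fell by 0.30 on the log2 scale (SE 0.08, adjusted p = 0.015 in limma). SUCLG1 had 28.0 and 29.1 FPKM in control cells and 24.9 and 22.3 FPKM upon knockdown, and it had a log2 fold change of -0.27 (SE 0.08, adjusted p = 0.0255 in limma). Both genes were lower in each knockdown library than in each control library. SUCLG2 went the other way, from 17.2 and 18.0 FPKM to 23.7 and 21.6 FPKM, a log2 fold change of 0.34 (standard error 0.08, adjusted p = 0.00725 in limma). SUCLA2 therefore had the higher RNA level of the beta subunits in both control libraries, at 1.19 and 1.25 of the SUCLG2 level. In both knockdown libraries it had the lower RNA level, at 0.747 and 0.774 of that of SUCLG2. This ratio was also chosen after the values were seen, and its exact two-sided permutation test gave p = 0.333, the smallest this design allows. When single RefSeq rows were fitted, the rows of SUCLG2, SUCLA2 and SUCLG1 did not pass (adjusted p = 0.0818, 0.113 and 0.138 in limma). The decrease of SUCLG1 passed in 5 of the 9 alternatives, with adjusted p from 0.00679 to 0.0818 in limma, and without sh-CEBPG#3 replicate 2 it was -0.19 (adjusted p = 0.222). The decrease of SUCLA2 passed in 8 of the 9 alternatives, with adjusted p from 0.00302 to 0.062, and did not pass without sh-NC replicate 2 (-0.24, adjusted p = 0.0617) or without sh-CEBPG#3 replicate 2 (-0.26, adjusted p = 0.102).

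**Figure D2:**
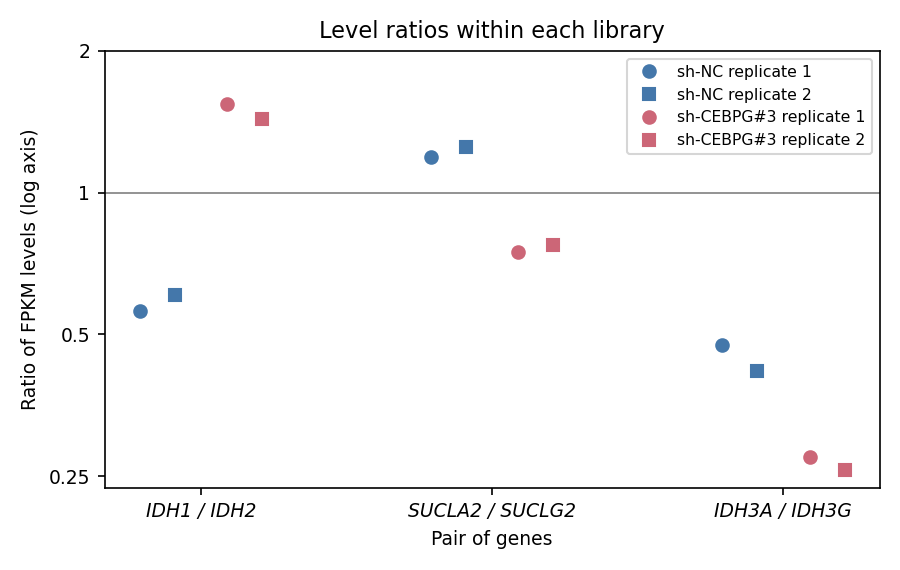
Ratio of the FPKM levels of 2 genes within each library (log axis), for IDH1 to IDH2, SUCLA2 to SUCLG2 and IDH3A to IDH3G, with sh-NC in blue, sh-CEBPG#3 in red, circles for replicate 1 and squares for replicate 2. The first ratio crossed 1 upward, from at most 0.605 to at least 1.43, the second crossed 1 downward, from at least 1.19 to at most 0.774, and the third stayed below 1 throughout.

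CS, the enzyme that admits acetyl-CoA to the cycle, had 94.7 and 95.9 FPKM in control cells and 114 and 105 FPKM upon knockdown. The knockdown libraries lay above the control libraries, with means of 109.8 ± 6.55 FPKM (SD, n = 2) upon knockdown and 95.3 ± 0.814 FPKM (SD, n = 2) in control cells. The log2 fold change of CS was 0.20 (standard error 0.07, adjusted p = 0.0467 in limma), close to the threshold. It passed in 4 of the 9 alternatives, with adjusted p from 0.0198 to 0.181, and was 0.10 with quantile normalization. Without sh-CEBPG#3 replicate 1 it was 0.14 (adjusted p = 0.384 in limma), and without sh-CEBPG#3 replicate 2 it was 0.26 (adjusted p = 0.108).

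The other 3 genes, OGDH, FH and MDH2, did not pass the test. OGDH, the substrate-binding E1 subunit of the 2-oxoglutarate dehydrogenase complex, had 17.2 and 20.2 FPKM in control cells and 19.1 and 18.9 FPKM upon knockdown, so the knockdown values lay between the control values. The log2 fold change of OGDH was 0.02 (95% confidence interval -0.18 to 0.23, adjusted p = 0.85 in limma). Its rows were divided unevenly between libraries, as NM_002541 made up 67.3% and 50.4% of the OGDH level in control cells and 74.4% and 63.1% in knockdown cells, while NM_001165036 had 5.37 and 9.82 FPKM in control cells and 4.84 and 6.94 FPKM upon knockdown. FH, which hydrates fumarate to malate, had 46.1 and 51.2 FPKM in control cells and 53.2 and 48.4 FPKM upon knockdown, and the groups overlapped. Its log2 fold change was 0.06 (95% confidence interval -0.12 to 0.25, adjusted p = 0.582 in limma). MDH2, the mitochondrial malate dehydrogenase, had 102 and 109 FPKM in control cells and 119.8 and 109.6 FPKM upon knockdown, and the lowest knockdown value was barely above the highest control value. Its log2 fold change was 0.12 (95% confidence interval -0.05 to 0.28, adjusted p = 0.237 in limma). Each of these intervals excludes a 2-fold change in either direction.

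**Figure D3:**
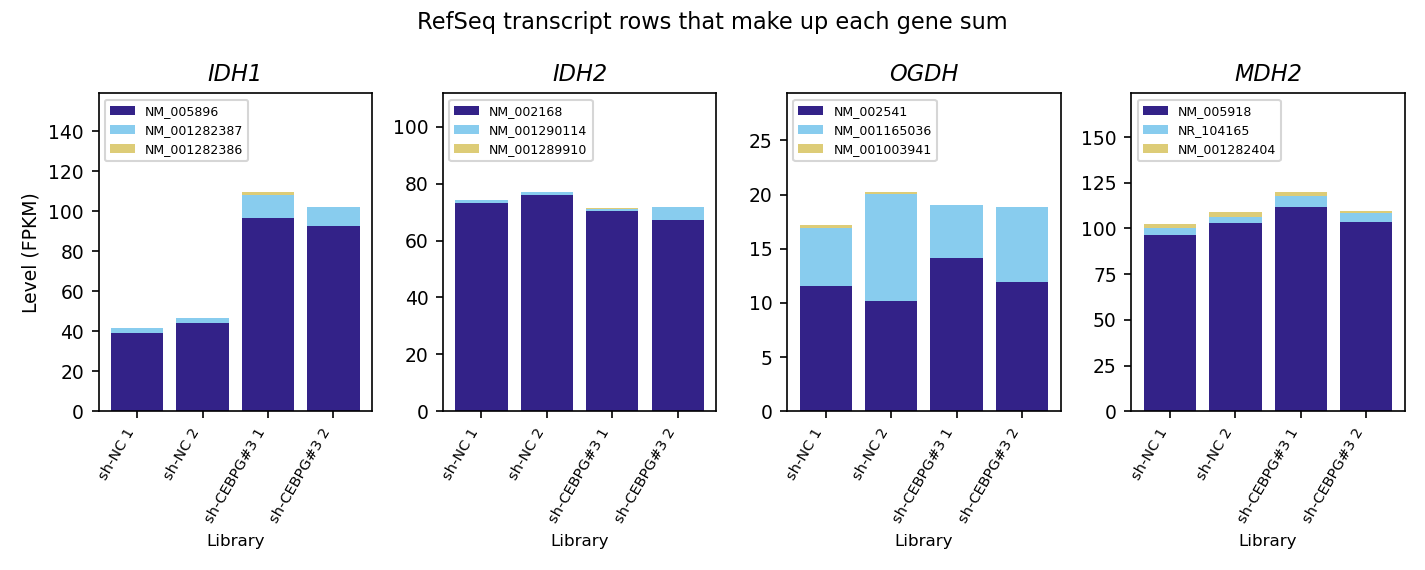
Level in FPKM of each RefSeq transcript row (stacked bars from 0) in each library for the 4 genes with 3 rows, IDH1, IDH2, OGDH and MDH2, with the replicate number after the group name. The main row carries most of the level of IDH1, IDH2 and MDH2, whereas OGDH is split between NM_002541 and NM_001165036.

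Among themselves the 9 enzymes differed widely in level. FPKM is scaled to transcript length, so levels can be set side by side, and in control cells they ran from MDH2 (106 FPKM) over CS (95.3), IDH2 (75.6), FH (48.6), IDH1 (44.1), SUCLG1 (28.5), SUCLA2 (21.5) and OGDH (18.7) to IDH3A (13.5 FPKM). In this order the ranges of FH and IDH1 overlapped, and those of the other neighbours did not. In knockdown cells IDH1 ranked 3, with a range that overlapped that of CS, and CS in turn overlapped MDH2, although MDH2 was above CS and CS above IDH1 within each knockdown library. OGDH and SUCLA2 exchanged places, at 19.0 and 17.2 FPKM in mean level in knockdown cells, and IDH3A stayed lowest in both groups. All 9 were in the upper part of the genes tested, from percentile 66.9 for IDH3A to percentile 96.4 for MDH2 by mean control level.

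The 10 further subunits of the cycle show where the 9 enzymes stand. Of these, 4 rose, 1 fell and 5 did not pass. Most of these calls were lost without sh-CEBPG#3 replicate 1, where fewer of all genes tested passed as well. The 4 that rose did so by 0.30 to 0.38 on the log2 scale and were IDH3G and SUCLG2, described above, with DLST (0.30, adjusted p = 0.0135 in limma) and DLD (0.38, adjusted p = 0.00613), which encode the E2 and E3 subunits that work with OGDH. OGDH itself did not pass. When single RefSeq rows were fitted, the main rows of DLST and DLD did not pass (adjusted p = 0.0642 and 0.181 in limma). In control cells the main row of DLD had 17.6 and 27.8 FPKM, and its other row had 8.31 and 1.43 FPKM. SDHD, a membrane anchor of succinate dehydrogenase, fell from 70.7 and 73.8 FPKM to 23.0 and 22.9 FPKM (log2 fold change -1.61, standard error 0.07, adjusted p = 1.79e-07 in limma), whereas SDHA, SDHB and SDHC had log2 fold changes of -0.03, -0.01 and 0.0038 and did not pass. Over all 19 genes, which include IDH1 and IDH2 that lie beside the cycle, 6 were higher, 4 were lower and 9 did not pass. Over all genes tested, 18.5% were higher and 23.8% were lower.

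**Figure D4:**
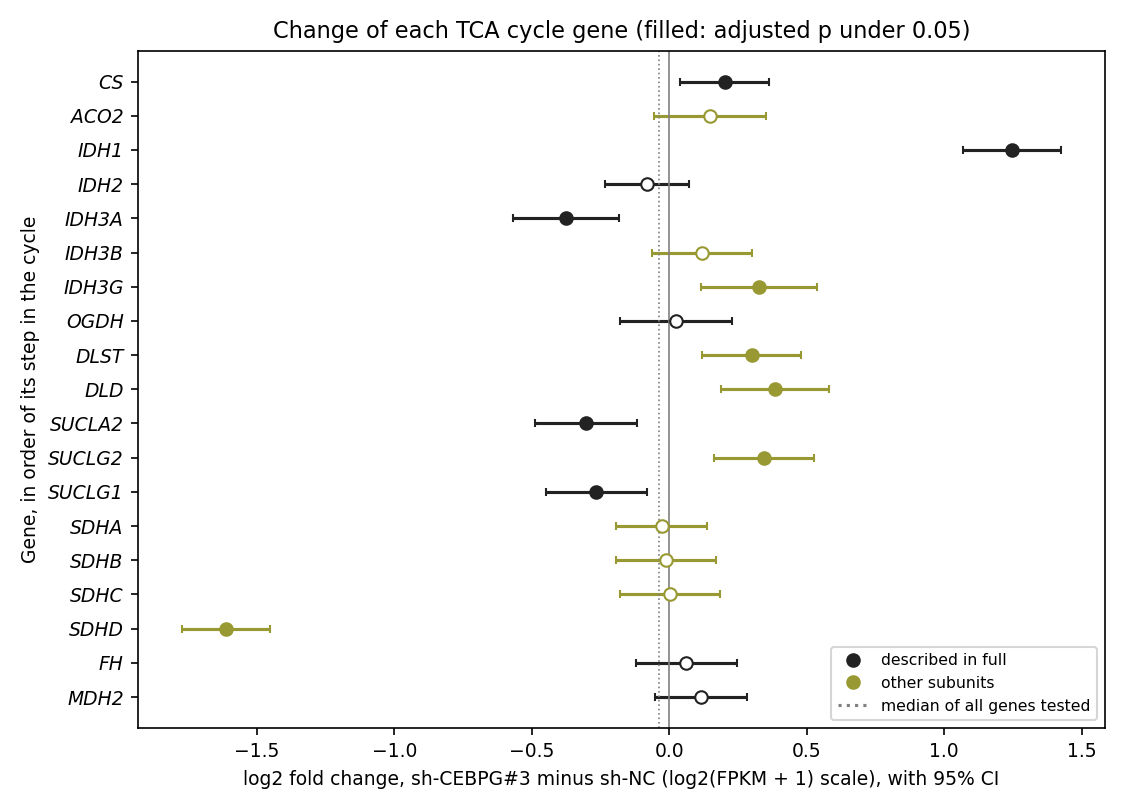
Log2 fold change (sh-CEBPG#3 minus sh-NC, on the log2(FPKM + 1) scale) with its 95% confidence interval from limma for the 9 enzymes (black) and 10 further subunits (olive), in order of their step, where filled points passed an adjusted p of 0.05 and the dotted line is the median of all genes tested. IDH1 (1.25) and SDHD (-1.61) stand far from the rest, and within IDH3 and succinyl-CoA ligase filled points lie on both sides of 0.

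Genes around the cycle were read from 3 lists. Of 12 tested genes for the entry of pyruvate, 5 fell and 7 did not pass, with a list median of -0.15, where 42.2% of all genes tested passed and 23.8% were lower. The largest decreases were those of PDP2 (-0.69, adjusted p = 0.000498 in limma), a phosphatase that activates pyruvate dehydrogenase, and PC (-0.69, adjusted p = 0.000718), pyruvate carboxylase, followed by PDP1 (-0.36) and PDHA1 (-0.30). PDP2, PC and PDP1 were low in control cells, with means of 4.1, 5.2 and 2.6 FPKM. Of these levels 52.8%, 54.9% and 69.2% remained, a larger decrease than the log2 values with a pseudocount show. Of 12 tested cytosolic partners and mitochondrial carriers, 6 rose and 6 did not pass, with a list median of 0.19, where 18.5% of all genes tested were higher. ME1, the cytosolic malic enzyme, which like IDH1 makes NADPH, had 1.47 and 1.42 FPKM in control cells and 4.39 and 3.98 FPKM upon knockdown (1.08, adjusted p = 4.25e-05 in limma). MDH1, the cytosolic counterpart of MDH2, rose by 0.43 (adjusted p = 0.000987 in limma), SLC25A11, the 2-oxoglutarate carrier, by 0.34 and ME2, a mitochondrial malic enzyme, by 0.32. Of 6 tested genes of glutamine and 2-oxoglutarate side reactions, 1 rose, PCK2 (0.47, adjusted p = 0.0013 in limma), and this call was lost when the most abundant transcript stood for the gene. D2HGDH, which oxidizes D-2-hydroxyglutarate, did not pass (0.18 on the log2 scale, limma adjusted p = 0.0959).

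The genes whose values over the 4 libraries lay nearest to those of IDH1, by Euclidean distance of log2(FPKM + 1) values centred on the control mean, were PLD4 (distance 0.0419), OLIG1 (0.0466) and TMEM45A (0.0656), out of 6070 genes. For IDH2 they were SLC66A2 (0.00801), ARID3A (0.00904) and NDUFV1 (0.0119). With 4 libraries this likeness reflects little more than the size of the change.

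In the series as a whole, FPKM totals were 364353 to 389766 per library and the depth is unknown because the FPKM table gives no counts. CEBPG itself had 30.4 and 33.5 FPKM in control cells and 19.2 and 17.1 FPKM upon knockdown, so 56.8% of its control level remained, and both knockdown libraries were below both control libraries. Of 10 myeloid leukemia markers, 9 had values, at 3.29 FPKM or more in every library, and ANPEP had no values under its symbol. Of these 9, 5 were higher, 2 were lower and 2 did not pass, where 18.5% of all genes tested were higher and 23.8% were lower. Among the 9 was LYZ, lysozyme, at 566.8 and 610.5 FPKM in control cells and 3126 and 2982 FPKM upon knockdown. MPO was at 1.55 of its control level and MEIS1 at 0.48 of it. Of 18 markers of lymphoid, erythroid, platelet, epithelial and fibroblast cells, 3 had values, between 0.0128 and 1.33 FPKM, and 15 had no values under their symbols. Of 8 interferon-stimulated markers, 7 were tested and all 7 were higher, where 18.5% of all genes tested were higher. MX1 was below the filter, at 0.12 and 0.24 FPKM in control cells and 0.23 and 0.20 FPKM upon knockdown. IFIT1, at 0.17 and 0.31 FPKM in control cells, passed the filter only through its knockdown libraries. The summed level of the 8 was 36.8 and 39.9 FPKM in control cells and 648 and 633 FPKM in knockdown cells. Of 10 monocyte markers, 4 were higher, 1 was lower, 2 did not pass and 3 were below the filter, again beside 18.5% higher and 23.8% lower over all genes tested. Their summed level was 190 and 218 FPKM in control cells and 262 and 254 FPKM in knockdown cells. In control cells FCN1 was listed at 0 in both libraries and CD14 and CD163 in 1 library each. The part of these marker groups in the change of IDH1 was not tested.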

How the data were processed

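The data are RNA-seq libraries of MV4-11 cells, 2 with sh-NC and 2 with sh-CEBPG#3. Total RNA was made into libraries with an Illumina TruSeq kit, and reads were filtered and mapped with HISAT2 2.0.5 to hg38, per the submitters' processing notes and the methods. The authors deposited FPKM values for each RefSeq transcript. The annotation and the program for FPKM are not given in the sources used here. Of 28780 listed transcripts, 199 have no value. Values were summed by symbol to 16490 genes, with 164 transcripts without a symbol kept by themselves.

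Genes whose mean was 0.5 FPKM or more, 12142 in all, were fitted as log2(FPKM + 1) in limma 3.58.1 (R 4.3.3, eBayes with a trend), with Benjamini-Hochberg adjustment across all of them. The pseudocount makes fold changes of low genes too small. The authors used DESeq2, which needs counts and was not run. Ratios were compared with an exact permutation test, which cannot give a p under 0.333 here. All 9 members and their rows were named, with CEBPG, up to 4 genes that passed per list by size of change, the SDH subunits, and the 3 genes nearest to IDH1 and IDH2 among those at or above the median mean level of 7.51 FPKM. IDH3B, D2HGDH and some myeloid, monocyte and interferon-stimulated markers were named in addition, after their values were seen. The members and lists were chosen with earlier results of these data known. Promoter windows come from RefSeq (GRCh38.p14).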

Additional observations from a re-analysis of the deposited data

How the results depend on the processing

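IDH1 (log2 fold change 1.17 to 1.26, adjusted p from 3.96e-23 to 0.00278 in limma) and CEBPG (-0.84 to -0.76) kept their direction and call in all 9 alternatives with all libraries, and IDH2 (-0.08) passed once, with quantile normalization (-0.12, adjusted p = 0.0491). The lowest adjusted p of IDH1 came from the replicate block, where each of the enzymes had a standard error of 0.12. It therefore does not measure the spread of IDH1 by itself. The count of lower enzymes, 3, was 1 when the highest RefSeq row stood for each gene, 2 with no filter, no trend or the replicate block and 4 with quantile normalization, and the count of higher enzymes, 2, was 1 with no filter, quantile normalization, no trend, the replicate block and the highest row, where CS did not pass. Over all genes, 2864 of 11992 passed with the highest row and 4093 of 16490 with no filter, against 5128 of 12142 in the main fit. With quantile normalization, no trend and the replicate block, 5751, 4823 and 4761 of 12142 passed. CS, SUCLA2 and SUCLG1 have 1 row each, and their log2 fold changes with the highest row were those of the main fit. With the highest row the median of the 9 genes was 0.061 instead of 0.025, and 2 pyruvate genes and 0 side-reaction genes passed instead of 5 and 1 (5 and 0 at an unadjusted p under 0.05 in limma). With no filter 3 pyruvate genes passed, and 5 at an unadjusted p under 0.05. The cause was not tested.

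With each library left out in turn, the lone library being assumed to vary like the other group, IDH1 ranged from 1.17 to 1.33, IDH2 from -0.11 to -0.05, CEBPG from -0.87 to -0.70, and the log2 difference of the IDH1 to IDH2 ratio from 1.29 to 1.40. The count of lower enzymes ranged from 1 to 3, of higher enzymes from 1 to 2, of other subunits that passed from 1 to 6, of pyruvate genes from 2 to 4 and of cytosolic partners and carriers from 2 to 6. The counts of 1 lower enzyme and 2 pyruvate genes came without sh-CEBPG#3 replicate 2, and those of 1 other subunit and 2 partners without sh-CEBPG#3 replicate 1. The median ranged from -0.087 to 0.14, where the median of all genes ranged from -0.07 to -0.0049. OGDH changed sign without sh-NC replicate 1 (-0.087), and FH without sh-NC replicate 1 (-0.013) or sh-CEBPG#3 replicate 1 (-0.0047). Of single rows fitted after the values were seen, NM_001290114 of IDH2 (0.61), NM_001165036 of OGDH (-0.29) and NM_001282404 of MDH2 (-0.47) had the opposite sign to their gene, at an adjusted p of at least 0.302 in limma.

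For libraries with the same number, deviations from the group mean correlated at 0.0606 over 12142 genes. The sample titles link these libraries only by that number, and a shared culture or batch was not tested. With the replicate block SUCLG1 (-0.27, adjusted p = 0.065 in limma) and CS (0.20, adjusted p = 0.181) did not pass, and 4761 of all genes passed against 5128. The count-based alternatives (edgeR, DESeq2) were left out, since FPKM are not counts.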
